A study of Mus musculus with 12 samples.

Results

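The cerebral cortex of C57BL/6 mice was compared between the first and the last age of a developmental series, embryonic day 11 (E11) and postnatal day 1 (P1). The comparison used 6 of the 12 libraries of the series, the 3 titled E11 and the 3 titled PN, chosen by their age label alone. No genotype or treatment is named in the labels. A library was made from a single animal, and no 2 animals of the same age shared a litter, so the replicates A, B and C are biological ones. Polyadenylated RNA was converted to stranded libraries and sequenced, and the deposited values are read counts per gene. Total counts were 28720133 to 31537145 in the E11 libraries and 40473592 to 45555438 in the P1 libraries. Levels are given as CPM (counts relative to the scaled library size), without correction for transcript length, changes as log2 fold changes of P1 over E11 with their standard error (SE), and adjusted p-values are from the quasi-likelihood test of edgeR.

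At E11 the wall of the mouse dorsal telencephalon is a neuroepithelium, a sheet of dividing cells that line the ventricle and pass through the cell cycle before most cortical neurons are born. By birth the neurons of all layers have been generated, most have migrated into the cortical plate, axons and the first synapses are forming, and gliogenesis has started. The libraries are of whole cortex, so in every result that follows fewer cells of a type and less RNA per cell cannot be told apart. The labels do not say how the E11 tissue was freed of skin, meninges and blood, and markers of those tissues are given with the results they touch.

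Most measured genes differed between the ages. Of 17847 tested genes, 14693 changed (82.3%), 7235 of them upwards (40.5%) and 7458 downwards (41.8%), at an adjusted p of 0.05 in edgeR. Beyond a 2-fold change, tested with edgeR's glmTreat, 4031 genes rose (22.6%) and 3210 fell (18.0%). That order followed the scaling, with 3812 rises and 3523 falls beyond 2-fold under upper-quartile factors and 3544 rises and 4051 falls under library size alone. With TMM factors, 997 changed genes had a fitted rise of at least 16-fold and 420 a fitted fall of that size, and for 64-fold the numbers were 345 and 116. The 3 E11 libraries did not overlap the 3 P1 libraries in 84.5% of tested genes. The median log2 fold change over all tested genes was -0.0359. It moved to -0.134 with upper-quartile scaling and to -0.265 with scaling by library size alone, and the share of rises among changed genes, 49.2%, was then 45.7 and 41.5%. Small changes below are to be read against that shift.

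The genes that rose beyond 2-fold took 9.28 to 9.5% of all counts in the E11 libraries and 40 to 41.3% in the P1 libraries. On average their share was 9.36% at E11, 14.1% at E13, 34.8% at E17 and 40.4% at P1. The genes that fell beyond 2-fold went from 23.8% of counts at E11 through 19.1 and 7% to 5.09% at P1. Genes entered these sets by the difference between E11 and P1, while the E13 and E17 libraries entered the fit through the shared spread. In both sets the widest step between sampled ages lay between E13 and E17. The sampled ages are not evenly spaced, and E13 to E17 is a longer interval than E11 to E13, so the width of a step is not a rate.

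**Figure D1:**
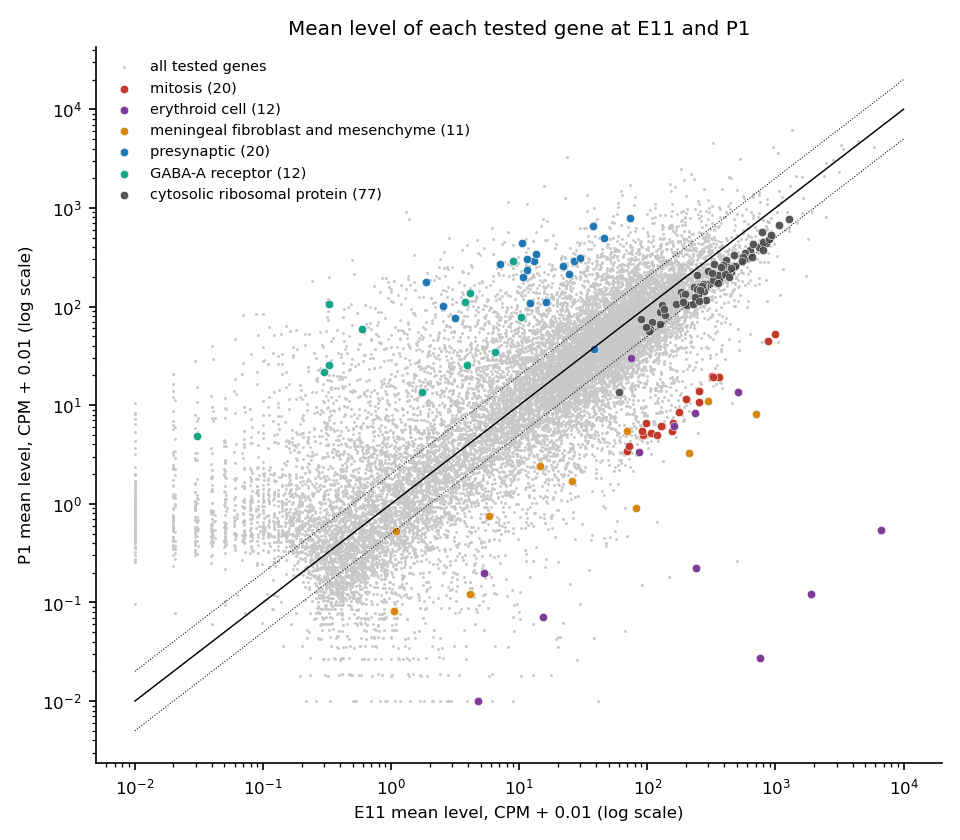
Mean level of each tested gene at E11 (horizontal, CPM + 0.01, log scale) and P1 (vertical, same scale), with lines at equality and at 2-fold either way. The 20 mitosis genes lie well below the equality line, the 77 ribosomal protein genes lie close below it, the erythroid genes reach furthest below, and GABA-A receptor genes and presynaptic genes other than Slc17a6 lie above.

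Among the most abundant transcripts, the rises belonged to the neuronal cytoskeleton. Tuba1a, an alpha-tubulin of migrating and growing neurons, was at 1289, 1341 and 1421 CPM in the E11 libraries and 6294, 6105 and 6222 CPM in the P1 libraries (log2 fold change 2.20 ± 0.05, SE; adjusted p = 2.39e-13). Its rise in mean CPM was greater than that of any other gene the naming rule covers. Dpysl3, which binds tubulin and actin in growing axons, was at 359, 326 and 298 CPM at E11 and 4370, 4443 and 4687 CPM at P1. Mapt, the axonal microtubule protein tau, stood at 26.8, 20.6 and 24.1 CPM and reached 3132, 3153 and 3467 CPM. In relative terms tau moved further than the other genes with the largest rises in CPM, by 7.09 ± 0.15 on the log2 scale (SE; adjusted p = 3.09e-13). Tubb2b (960 to 4159 CPM, means), Tubb3 (527 to 3140), Map1b (1054 to 3593), Crmp1 (183 to 2473) and Dcx (218 to 2218) complete the 8 largest rises in CPM. All 8 encode tubulins, microtubule-binding proteins or members of the Crmp family, which carries semaphorin signals to the growth cone.

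The largest falls in CPM were of mixed kinds. The embryonic globins Hbb-y and Hba-x head them and are described with the blood genes. Eef1a1, which brings transfer RNAs to the ribosome, fell from 5838, 6016 and 5869 CPM to 4286, 4182 and 3956 CPM, a log2 change of only -0.51. Ccnd2, the cyclin that carries cortical progenitors into S phase, fell from 1957, 1823 and 1420 CPM to 237, 192 and 182 CPM (log2 fold change -3.09 ± 0.15, SE; adjusted p = 9.48e-10). Grb10, an imprinted inhibitor of growth factor signalling, was nearly level within each age, at 1029, 1047 and 1039 CPM at E11 and 45.1, 41.6 and 43.4 CPM at P1 (log2 fold change -4.58 ± 0.09, SE; adjusted p = 1.36e-13). Nedd4, a ubiquitin ligase, fell from a mean of 2489 to 800 CPM, Pkm, a pyruvate kinase, from 1797 to 483 CPM, and the RNA-binding protein gene Hnrnpa2b1 from 1921 to 902 CPM.

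A gene was called on at an age if each of the 3 libraries held at least 1 CPM, and off if the 3 libraries together held at most 3 counts. On this rule, 12817 genes were on in all 6 libraries. Of the 14102 genes on at P1, 88 were off at E11 (0.624%), and of the 13674 genes on at E11, 41 were off at P1 (0.300%). Switches between these extremes were thus a small share of genes at either age, and their levels were mostly low: the median was 3.2 CPM for genes on at P1 and 2.95 CPM for genes on at E11. No test applies to these choices. Of the 88, 61 are protein-coding in the GENCODE M21 annotation, 24 had no count at E11, and 12 reached 10 CPM at P1. Of the 41, 31 are protein-coding, 14 had no count at P1, and 7 reached 10 CPM at E11. A count of 3 over the libraries of an age corresponds to 0.0303 CPM at E11 and 0.0254 CPM at P1, and ratios against it cover counting error only.

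Unnamed transcripts are left out of the 12 highest genes in either direction. The highest gene on at P1 and off at E11 was Hs3st2, a brain-enriched sulfotransferase that modifies heparan sulfate chains. It had 3 counts over the E11 libraries and 36.2, 35.2 and 48.1 CPM at P1, a ratio of 1330 (95% counting interval 453 to 6430). Sst, the neuropeptide somatostatin of a large class of cortical interneurons, had 3 counts at E11 and 23.2, 29 and 35.9 CPM at P1 (ratio 978, interval 334 to 4750). Npas1, a transcription factor of forebrain interneurons, had 2 counts and then 26.9, 29 and 28.7 CPM (ratio 1400, interval 387 to 11600). The E11 counts of these genes lay in 1 or 2 libraries each, and all P1 libraries were far above them.

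The other 9 of the 12 highest have varied known roles. Cacng3, an auxiliary subunit of AMPA-type glutamate receptors, had 1 count at E11 and 12.2, 14 and 15.8 CPM at P1. Drd1, the dopamine receptor of the direct striatal pathway and of some cortical neurons, had 1 count and 13.1, 9.15 and 11.9 CPM. Slc6a7, a brain proline transporter, had 2 counts and 12.5, 13.2 and 20.1 CPM. Kcns1, a silent modifier subunit of voltage-gated potassium channels, had 3 counts and 8.76, 9.36 and 10.6 CPM. The receptor gene Rxfp1, which binds relaxin, had 1 count and 13.4, 15.7 and 20.3 CPM, and Omg, a glycoprotein of oligodendrocytes and neurons that restrains axon growth, had 1 count and a mean of 8.78 CPM. Rprml was the only one of the 12 without a count at E11. At 8.84, 11.4 and 10.9 CPM its P1 level was at least 344-fold higher than the floor of 3 counts. Fam43b (1 count, then 20.8 CPM on average) and Vwc2l (2 counts, then 10.7 CPM) complete the set.

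The on genes appeared late in the sampled span. The age at which a gene was first on (at least 1 CPM in each library) was E13 for 2 of the 88, E17 for 49 and P1 for 37. The 2 at E13 were Sst, with a mean of 3.86 CPM there, and Drd1, with 1.91 CPM, and both reached about their P1 level at E17 (25.8 and 14.4 CPM). Rxfp1 had no count at E13 and 1.84 CPM at E17. Some of the remaining 76, named here after their values were seen, are Vip, the interneuron peptide, with no count at E11 and 1.38, 1.39 and 2.08 CPM at P1, and Crh, the corticotropin-releasing peptide, with no count and 1.01, 1.21 and 1.17 CPM. The astrocyte-enriched receptor gene Gpr37l1 had no count at E11 and 6.31, 6.86 and 11.9 CPM at P1. The gene identifiers of 2 let-7 microRNA precursors, Mirlet7b and Mirlet7c-2, had no count at E11 and mean levels of 1.62 and 1.39 CPM at P1. These are reads of polyadenylated RNA over the precursor locus and do not measure the mature microRNA.

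**Figure D2:**
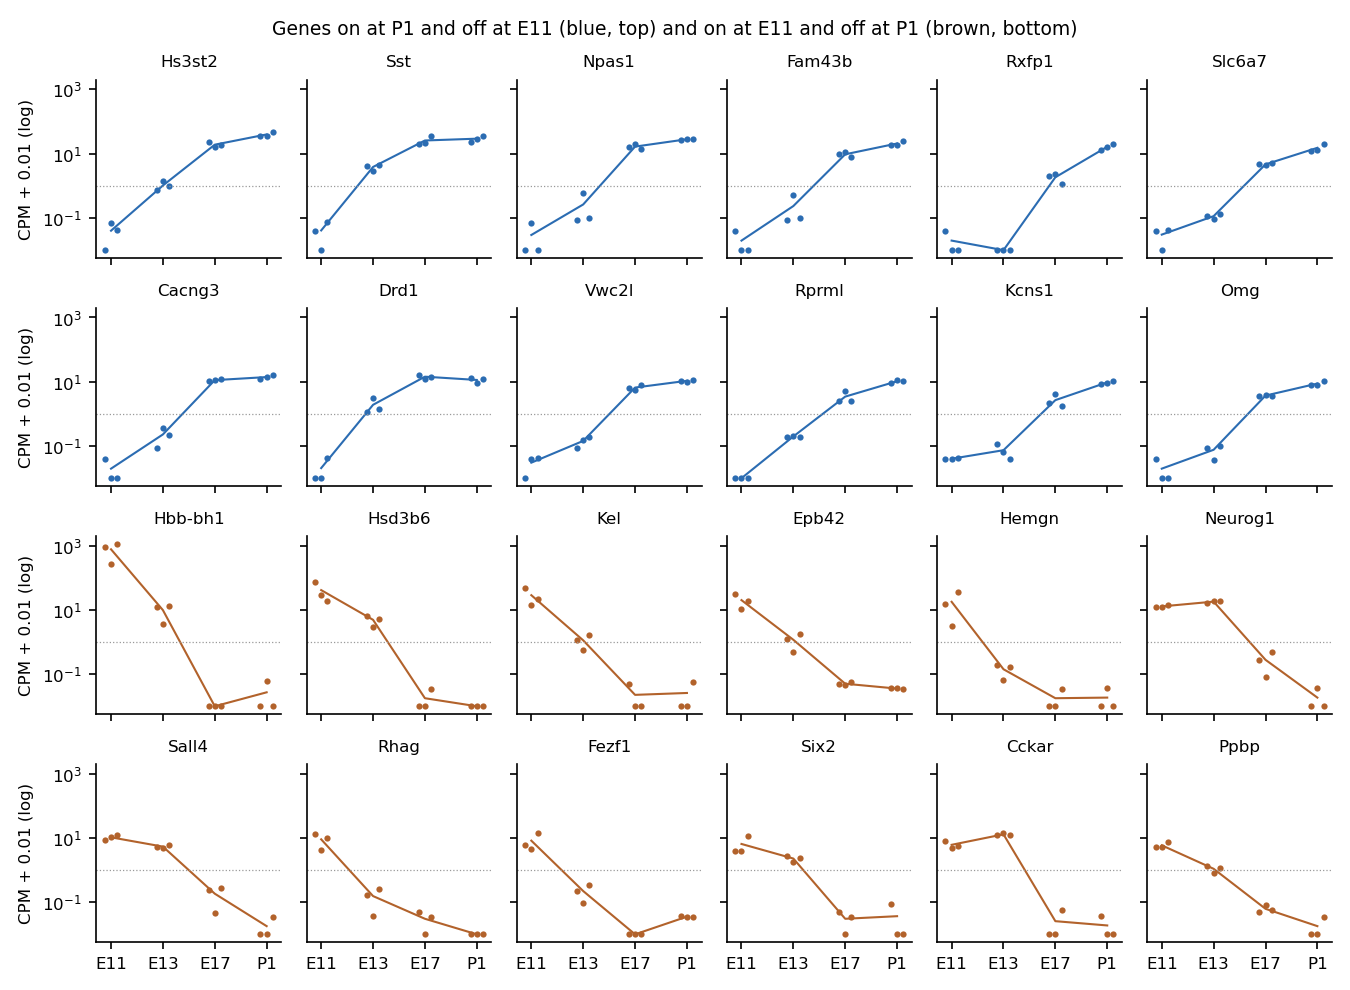
Level (CPM + 0.01, log scale) of the 12 highest genes on at P1 and off at E11 (blue) and the 12 highest genes on at E11 and off at P1 (brown) at the 4 sampled ages. Points are libraries, lines join the means, and the dotted line marks 1 CPM. The blue genes cross 1 CPM at E13 or E17 and the brown genes stay above it at E11 and, for some, at E13.

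Promoter sequences of the highest switching genes are shown because 2 short motifs occur in them at positions close to the start of transcription. Windows are the 250 bases before the start in RefSeq annotation of GRCm38.p6, written in the direction of transcription, and capitals mark the motif. Of the 12 highest on genes, 9 have a window in the table, and 2 of these, Sst and Hs3st2, hold the cyclic AMP response element TGACGTCA, which reads the same on both strands. The same 8 letters occur in 1.55% of the 32851 windows of all annotated starts. The Sst element begins 48 bases before the start and that of Hs3st2 begins 69 bases before it. The Sst window lies at chr16:23890845-23891094 (minus strand) and the Hs3st2 window at chr7:121392046-121392295 (plus strand).
Sst: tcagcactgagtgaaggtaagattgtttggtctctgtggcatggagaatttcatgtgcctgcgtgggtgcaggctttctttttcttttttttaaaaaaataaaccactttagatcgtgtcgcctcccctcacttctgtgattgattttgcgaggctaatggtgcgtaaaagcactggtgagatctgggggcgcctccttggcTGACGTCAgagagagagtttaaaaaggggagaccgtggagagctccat
Hs3st2: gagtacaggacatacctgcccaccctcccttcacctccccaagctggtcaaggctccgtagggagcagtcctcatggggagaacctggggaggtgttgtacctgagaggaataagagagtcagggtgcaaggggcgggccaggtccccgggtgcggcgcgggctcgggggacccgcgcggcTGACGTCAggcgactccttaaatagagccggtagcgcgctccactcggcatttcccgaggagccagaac

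Among the 12 highest genes on at E11 and off at P1, 9 have a window. In 5 of these (Hsd3b6, Kel, Epb42, Fezf1 and Six2) the window holds AGATAA or its reverse complement TTATCT, a form of the letters bound by GATA factors. Other forms were not searched for. The windows of the blood genes Hemgn, Rhag and Ppbp and of Neurog1 lack both. Of all 32851 windows, 9.99% hold AGATAA or TTATCT, and 1 of the 9 windows of the on genes does (Vwc2l). In Kel the motif begins 56 bases before the start and in Hsd3b6 31 bases before it. The Kel window lies at chr6:41704326-41704575 (minus strand) and the Hsd3b6 window at chr3:98814444-98814693 (minus strand). A match is a description of these letters and was not tested against binding or expression.
Kel: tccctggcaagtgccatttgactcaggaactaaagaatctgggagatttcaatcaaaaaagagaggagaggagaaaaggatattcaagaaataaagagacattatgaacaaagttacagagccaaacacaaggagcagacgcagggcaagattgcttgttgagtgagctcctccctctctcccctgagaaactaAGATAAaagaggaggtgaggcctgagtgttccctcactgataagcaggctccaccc
Hsd3b6: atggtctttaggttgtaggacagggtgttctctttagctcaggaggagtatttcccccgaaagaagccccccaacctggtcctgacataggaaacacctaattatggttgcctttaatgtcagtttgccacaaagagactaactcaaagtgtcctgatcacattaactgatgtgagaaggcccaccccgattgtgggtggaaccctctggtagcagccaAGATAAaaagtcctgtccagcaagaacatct

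Of the 41 genes on at E11 and off at P1, 5 are on any of the gene lists, 2 of them on the erythroid list. The embryonic beta-type globin Hbb-bh1 was highest, at 925, 264 and 1098 CPM at E11 and with 2 counts over the P1 libraries (ratio 44500, interval 12300 to 368000). Kel, a red cell surface enzyme that carries the Kell antigens, was at 48.7, 14.4 and 22.5 CPM with 2 counts at P1. Epb42, a protein of the red cell membrane skeleton, was at 30.2, 10.9 and 19 CPM with 3 counts at P1. Hemgn, a nuclear protein of blood progenitors, was at 15.5, 3.15 and 34.6 CPM with 1 count, and Rhag, the partner of the Rh antigens, was at 13.1, 4.24 and 9.65 CPM with none (at least 354-fold lower). In all 5 of these genes E11 library B was the lowest. It was also the lowest for the summed level of the 12 listed erythroid genes, at 16500, 5750 and 9690 CPM at E11 and 84.1, 57.9 and 45.7 CPM at P1. The part of blood in the tissue in each of these genes was not tested. Hsd3b6, a steroid-converting enzyme, was at 75.1, 29 and 19 CPM at E11 and had no count at P1, at least 1640-fold lower. Ppbp, a platelet chemokine, varied less at E11 (5.23, 5.04 and 7.29 CPM) and had 1 count at P1.

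Outside the blood genes, Neurog1 and Sall4 varied little between the E11 embryos. Neurog1, a proneural transcription factor, was at 12, 12.6 and 13.7 CPM at E11 and had 1 count over the P1 libraries (ratio 1500, interval 269 to 59400). Sall4, a zinc finger factor of pluripotent and early embryonic cells, was at 8.57, 10.7 and 11.9 CPM with 1 count at P1 (ratio 1220, interval 219 to 48400). Cckar, a cholecystokinin receptor, was at 7.8, 4.75 and 5.67 CPM with 1 count at P1. Fezf1, a forebrain zinc finger factor, was uneven at 6.2, 4.66 and 13.7 CPM as was Six2, a homeobox gene of mesenchyme and placodes, at 3.78, 3.8 and 11.8 CPM, each with 3 counts at P1. E11 library C was the highest for both. All 3 P1 counts of Six2 came from library A.

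The off genes were last on at E11 or E13. Of the 41, 25 were last on at E11 and 16 at E13, and none was on at E17. Neurog1 (18 CPM) and Cckar (12.9 CPM) had higher means at E13 than at E11 and then fell to 0.269 and 0.0156 CPM at E17. Hemgn fell to 0.132 CPM and Fezf1 to 0.212 CPM at E13 already. Other off genes, named after their values were seen, include the paired-box genes Pax3 and Pax7, which mark dorsal neural tube and neural crest, with means of 2.41 and 2.71 CPM at E11 and no count at P1. Fgf8, the signal of the anterior telencephalic midline, was at 1.92, 3.83 and 1.75 CPM at E11 and had 3 counts at P1. Gata1, the master regulator of red cells and platelets, was at 6, 1.65 and 6.53 CPM at E11 with no count at P1 (at least 184-fold lower), lowest again in library B.

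Of the 15 largest rises by log2 fold change, 9 are on genes already given, and the other 6 follow. Npy, the neuropeptide Y of cortical interneurons, had 6 counts over the E11 libraries and 84.3, 68.3 and 92.9 CPM at P1 (log2 fold change 10.32 ± 0.29, SE; adjusted p = 4.53e-12). Cck, the cholecystokinin peptide of interneurons and some pyramidal neurons, had 5 counts at E11 and 39.2, 51.8 and 50.9 CPM at P1 (log2 fold change 9.77 ± 0.60, SE). The receptor gene Cckar, on at E11 and off at P1, moved the opposite way between these ages. Camk2b, a subunit of the calcium- and calmodulin-dependent kinase of dendritic spines, rose from 1.42, 1.36 and 1.11 CPM to 879, 881 and 986 CPM (log2 fold change 9.46 ± 0.22, SE; adjusted p = 1.34e-12).

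Grm5, the metabotropic glutamate receptor that couples to calcium release, rose from 0.148, 0.354 and 0.191 CPM to 173, 185 and 191 CPM (log2 fold change 9.60 ± 0.17, SE; adjusted p = 7.77e-14). Rasgrf2, a calcium-responsive activator of Ras, had 9 counts at E11 and 79.7, 80.5 and 93.7 CPM at P1. Gda, a guanine deaminase that also acts in dendrite growth, had 8 counts at E11 (0.177, 0.059 and 0 CPM) and 78, 80.9 and 95.5 CPM at P1. Its log2 fold change was 9.98 and became 11.27 without E11 A. At E13 the levels of Grm5 (4.09 CPM), Cck (1.05 CPM) and Camk2b (31 CPM) had left the E11 range, while Gda (0.251 CPM) and Rasgrf2 (0.263 CPM) were still under 1 CPM.

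The largest falls outside the off genes included regulators of early progenitors. Hmga2, a chromatin protein that maintains the growth of young neural stem cells, fell from 416, 404 and 691 CPM to 0.186, 0.258 and 0.31 CPM (log2 fold change -10.93 ± 0.60, SE; adjusted p = 4.73e-08). Its E13 mean was 62.6 CPM and its E17 mean 0.775 CPM. Wnt8b, a signal of the cortical hem, fell from 140, 137 and 166 CPM to 0, 0.515 and 0 CPM (log2 fold change -9.74 ± 0.66, SE; adjusted p = 2.6e-07). All 20 of its P1 counts were in library B, and the other 2 P1 libraries had none. Without P1 C the change was -9.09, and without P1 B no P1 count was left. Fndc3c1, an X-linked gene of a fibronectin-domain family, fell from 58.2, 57 and 84.1 CPM to 0, 0.0773 and 0.0478 CPM. Its log2 fold change of -10.50 was -11.15 without P1 B.

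Blood genes and a choroid plexus gene make up the rest of that set. Hbb-y, the embryonic beta-type globin, went from 10660, 3873 and 5466 CPM to 0.0266, 1.5 and 0.0716 CPM, and Hba-x, its alpha-type partner, from 2753, 804 and 2085 CPM to 0.0266, 0.309 and 0 CPM. Their log2 fold changes, -13.62 and -14.01, became -16.89 and -16.80 without P1 B, which held most of the P1 counts of both, and that of Hba-x was -13.38 without P1 C. Slc4a1, the red cell anion exchanger (372, 111 and 237 CPM to 0.266, 0.232 and 0.143 CPM), was again lowest at E11 in library B. Ttr, the transthyretin of the choroid plexus, ranged widely at E11, at 81.1, 161 and 28.6 CPM, and was at 0.106, 0.103 and 0.215 CPM at P1. Its log2 fold change was -9.26 ± 1.89 (SE; adjusted p = 0.00162 in edgeR), and limma-voom gave an adjusted p of 0.194.

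In the gene lists that follow, a count of members is read against the background of all tested genes, of which 40.5% rose and 41.8% fell around a median of -0.0359 on the log2 scale. Every member of the cell division lists fell. All 20 DNA replication genes were lower beyond 2-fold, and their median was -3.42. The 20 mitosis genes also all fell beyond 2-fold, with a median of -4.25 and a narrow range of -4.83 to -3.88. Their summed level was 5010, 4840 and 5070 CPM at E11 and 280, 248 and 250 CPM at P1, so the ages lay far apart and the replicates close together.

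The licensing factors Cdc6 (55.3 to 2.13 CPM) and Mcm10 (81.2 to 3.12 CPM) and Uhrf1 (382 to 15.1 CPM), which couples replication to DNA methylation, fell furthest among replication genes. The smallest fall was that of the helicase subunit Mcm7 (378 to 67.6 CPM, log2 fold change -2.48). Bub1, a spindle checkpoint kinase, fell from 151, 157 and 160 CPM to 5.83, 4.92 and 5.66 CPM (log2 fold change -4.83 ± 0.13, SE; adjusted p = 1.91e-12). Ccnb1, the mitotic cyclin, went from 160 to 6.54 CPM and Kif2c, a microtubule depolymerase, from 120 to 5.03 CPM. Top2a, the topoisomerase that untangles chromosomes, fell from 990 to 53 CPM.

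Progenitor markers divided. Of 14 radial glia genes, 9 fell and 5 rose, 4 of the rises beyond 2-fold. Falling members included the intermediate filament genes Nes (868, 850 and 857 CPM to 119, 113 and 108 CPM) and Vim (1062, 1040 and 1137 CPM to 141, 132 and 116 CPM), the stem cell factor Sox2 (163 to 40.4 CPM) and the Notch effectors Hes1 (49.4 to 6.03 CPM) and Hes5 (65.7 to 12.5 CPM). The transcription regulator Id4 fell furthest, from 304 to 18.1 CPM. Rising members were Tnc, an extracellular matrix protein (5.29, 9.79 and 7.61 CPM to 298, 314 and 246 CPM, log2 fold change 5.24 ± 0.30, SE), and Ptn, a secreted growth factor (131 to 671 CPM). Slc1a3, a glutamate transporter (80.1 to 304 CPM), Ddah1 (67.4 to 150 CPM) and Fabp7, a fatty acid carrier (203 to 374 CPM), rose as well. The list therefore did not move as 1 block.

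Of 8 genes of intermediate progenitors, the cells that divide away from the ventricle to make neurons, 6 fell, with a list median of -3.36, and the number of rises, 0, became 1 without E11 A or without P1 C. Neurog2, the main proneural factor of cortical excitatory neurons, fell from 132, 149 and 115 CPM to 3.2, 3.61 and 1.26 CPM (log2 fold change -5.63 ± 0.30, SE). Eomes (Tbr2), which defines these cells, fell from 135 to 12 CPM (adjusted p = 3.35e-06). Both were higher at E13, at 249 and 336 CPM, than at either end, so the comparison of the ends does not show their peak. Insm1 had a log2 fold change of 0.30 (adjusted p = 0.115) and Sstr2 one of 0.40 (adjusted p = 0.132).

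Transcription factors of the dorsal telencephalon split evenly, 4 up and 4 down of 8. Emx2 (203, 179 and 192 CPM to 12, 14 and 9.67 CPM), Pax6 (160 to 18.2 CPM), Lhx2 (612 to 172 CPM) and Emx1 (95.5 to 40.4 CPM), which pattern the cortical ventricular zone, fell. Neurod6 (42 to 494 CPM) and Bcl11b (68.5 to 191 CPM), which mark postmitotic excitatory neurons, rose beyond 2-fold. Tbr1, a deep-layer determinant, rose from 101 to 190 CPM. Emx1 and Tbr1, defining markers of the labelled tissue, were thus measured at both ages.

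Genes that time early development fell together: 10 of 11 fell, all beyond 2-fold, with a median of -4.09, and the remaining member, Nr6a1, had a log2 fold change of 0.33 (adjusted p = 0.111) and passed as a rise without P1 B. Besides Hmga2 and Sall4, Lin28a, which blocks let-7 maturation, was at 0.857, 1.56 and 3.12 CPM at E11 and had 2 counts at P1. Its relative Lin28b fell from 13.4, 14.9 and 24.4 CPM to 2.24, 2.63 and 2.51 CPM. The Igf2bp genes, RNA-binding proteins of embryonic growth, fell from 267 to 14.1 CPM (Igf2bp1), 249 to 14.7 CPM (Igf2bp2) and 170 to 19.3 CPM (Igf2bp3). E11 library C was the highest of the 3 for Hmga2, Lin28a, Lin28b and Sall4.

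Secreted signals of the early forebrain fell in 15 of 18 cases, with a median of -3.53. Wnt3a, made by the cortical hem, fell from 21.2, 19.6 and 21.9 CPM to 0.0266, 0.0773 and 0 CPM (log2 fold change -9.12 ± 0.61, SE, -10.31 without P1 B and -8.52 without P1 C). Fgf15, a signal of early ventral and medial forebrain, was uneven at E11, at 5.73, 12.8 and 8.95 CPM, and was near 0.04 CPM at P1 (log2 fold change -7.64 ± 1.22, SE; -8.24 without P1 C). Rspo1, an enhancer of Wnt signals, fell from 69.1 to 0.466 CPM, Fgf17 from 15.9 to 0.22 CPM and Bmp4 from 9.79 to 0.433 CPM. Wnt7b, which cortical neurons and progenitors both make, was at 146 and 130 CPM (adjusted p = 0.212). Shh, the ventral forebrain signal, was the 1 rise, from 0.253 to 0.715 CPM (adjusted p = 0.0439), with an E11 C level, 0.669 CPM, that reached the P1 range, and it did not pass when any 1 of E11 A, E11 B, P1 A, P1 B or P1 C was left out.

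All 12 pan-neuronal genes rose, 11 beyond 2-fold, with a median of 3.44. After tau, the largest log2 rises were those of the neurofilament gene Nefl (5.58, 4.69 and 6.21 CPM to 142, 177 and 157 CPM), of Gap43, a growth cone protein (34.9, 31.6 and 35.6 CPM to 853, 858 and 1058 CPM), and of Stmn2, a microtubule regulator (72.5 to 1723 CPM). Elavl4, an RNA-binding protein already present in the first neurons, moved least, from 85 to 109 CPM (log2 fold change 0.36; adjusted p = 0.000429), and did not pass under library-size scaling (adjusted p = 0.0868). The summed level of the list went from 1500 to 1740 CPM at E11 to 14800 to 15600 CPM at P1.

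**Figure D3:**
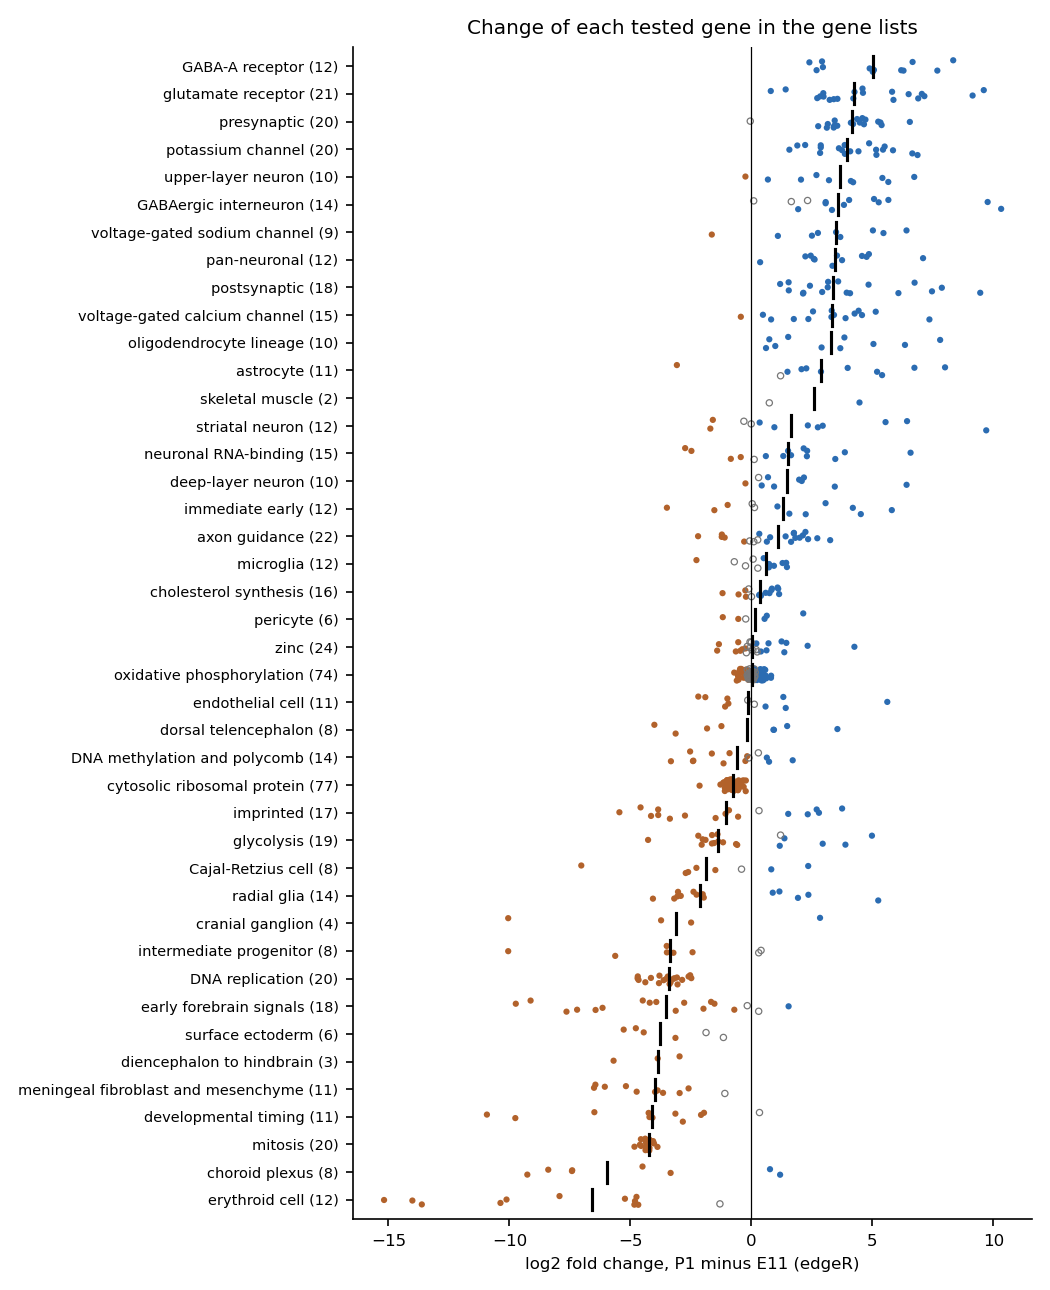
Log2 fold change, P1 minus E11, of each tested gene in 42 gene lists, ordered by the list median (black bar), with the number tested in brackets. Blue genes rose, brown genes fell and open circles did not pass the test. GABA-A receptor, glutamate receptor and presynaptic lists lie furthest to the right and erythroid, choroid plexus and mitosis lists furthest to the left.

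Synaptic genes rose almost without exception. Of 20 presynaptic genes, 19 rose beyond 2-fold, with a median of 4.16. Cplx1, which clamps and triggers vesicle fusion, was at 1.87 CPM on average at E11 and 176 CPM at P1 (6.55 ± 0.13 on the log2 scale, SE; adjusted p = 1.42e-13). The calcium sensor Syt1 rose from 12.1, 8.49 and 11.2 CPM to 426, 410 and 488 CPM, the active zone organiser Rims1 from 2.53 to 102 CPM, and the SNARE protein Snap25 from 7.11 to 268 CPM. The exception was Slc17a6, the vesicular glutamate transporter VGLUT2, at 40.2, 33.9 and 40 CPM at E11 and 33.7, 38.9 and 37.7 CPM at P1 (log2 fold change -0.05; adjusted p = 0.688). Its mean was 70.4 CPM at E13. Under library-size scaling it was lower at P1 by a log2 change of -0.28 (adjusted p = 0.0251).

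All 18 postsynaptic genes rose beyond 2-fold, with a median of 3.38. After Camk2b, the largest were the scaffold genes Dlgap1 (0.62, 0.855 and 1.02 CPM to 194, 196 and 192 CPM; log2 fold change 7.87 ± 0.14, SE) and Dlg2 (2.57, 2.98 and 2.87 CPM to 489, 493 and 502 CPM; 7.46 ± 0.19, SE). Camk2a, the partner subunit of Camk2b that marks mature excitatory synapses, rose much less, from 33 to 96.2 CPM (log2 fold change 1.54). Homer1, which links metabotropic receptors to calcium stores, rose least, from 47.5 to 108 CPM.

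Every one of the 21 tested glutamate receptor genes rose, 20 beyond 2-fold, with a median of 4.26. Grin2b, the NMDA receptor subunit of the developing brain, rose from 1.15, 1.33 and 1.62 CPM to 754, 785 and 775 CPM (log2 fold change 9.14 ± 0.19, SE; adjusted p = 4.96e-13). The obligatory NMDA subunit Grin1 rose from 1.49 to 178 CPM, the inhibitory subunit Grin3a from 0.741 to 97.6 CPM, and the AMPA subunit Gria1 from 2.24 to 203 CPM. Kainate receptor genes were among the least changed: Grik2 rose from 43.9 to 76.6 CPM and Grik5 from 108 to 287 CPM.

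The 12 tested GABA-A receptor genes all rose beyond 2-fold, and their median, 5.04, was the highest of the 42 lists. Gabra5, a subunit of extrasynaptic receptors in cortex and hippocampus, rose from 0.443, 0.295 and 0.223 CPM to 95.6, 110 and 111 CPM (log2 fold change 8.34 ± 0.31, SE; adjusted p = 1.65e-10). Gabrb1 rose from 0.579 to 59.4 CPM, and Gabrd, an on gene with 2 counts at E11, was at 5.03, 4.07 and 5.51 CPM at P1. Gabra6, known from cerebellar granule cells, had no count in the E11 or P1 libraries.

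Genes of voltage-gated channels followed. Of 20 potassium channel genes, 20 rose beyond 2-fold (median 3.97); of 15 calcium channel genes, 14 rose and 1 fell (median 3.32); and of 9 sodium channel genes, 8 rose and 1 fell (median 3.50). The sodium channel Scn2a, the main carrier of the early action potential in pyramidal neurons, rose from 2.81, 2.98 and 3.15 CPM to 260, 230 and 270 CPM (log2 fold change 6.41 ± 0.09, SE; adjusted p = 2.22e-14). The low-threshold calcium channel Cacna1i rose from 0.529 to 86.6 CPM, and Kcnma1, the large calcium-activated potassium channel, from 0.672 to 68.1 CPM. The falls were those of Scn4b (2.12 to 0.68 CPM) and Cacnb2 (10.4 to 7.66 CPM).

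Markers of layer neurons were unequal in their rise. Upper-layer genes rose in 9 of 10 cases, with a median of 3.66, and deep-layer genes in 8 of 10, with a median of 1.46. Mef2c, an activity-linked transcription factor, rose from 15, 17.6 and 14.5 CPM to 1558, 1587 and 1846 CPM (log2 fold change 6.73 ± 0.15, SE; adjusted p = 3.96e-13). Pou3f1, a POU-domain transcription factor, rose from 2.19 to 110 CPM. In the deep-layer list, Nxph3, a neurexin ligand of the deepest layer, rose from 0.916, 0.648 and 0.478 CPM to 57.2, 59.9 and 58.9 CPM, and Ldb2, a cofactor of LIM proteins in subcortical projection neurons, from 12.8 to 139 CPM.

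The determinant of subcortical neurons Fezf2, which progenitors also express, fell from 86.5 to 72.9 CPM (log2 fold change -0.25; adjusted p = 0.0121). It lost this call without E11 A, P1 A, P1 B or P1 C, where the adjusted p was 0.0503 to 0.0693, so the list then held no fall. Cux1 fell from 242 to 204 CPM (adjusted p = 0.016) and lost its call without P1 B (adjusted p = 0.125). Among 8 genes of Cajal-Retzius cells, the earliest neurons of the cortical surface, 5 fell and 2 rose. Ebf2 fell from 51.4, 40.7 and 51.8 CPM to 0.24, 0.438 and 0.406 CPM, Trp73 from 37.6 to 13.4 CPM, and Lhx1 from 7.34 to 1.2 CPM. Reln, the secreted protein of these cells that interneurons also make, rose from 111, 79.8 and 72.9 CPM to 432, 517 and 394 CPM.

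Interneuron markers rose in 11 of 14 cases, with a median of 3.58, and 0 fell. Cortical interneurons are born in the ventral telencephalon and enter the cortex by migration. Lhx6, which marks those of the medial eminence, was even at E11, at 2.04, 2.83 and 1.75 CPM, and rose to 83, 85.9 and 86.1 CPM (log2 fold change 5.26 ± 0.15, SE; adjusted p = 2.38e-12). Other members were uneven at E11, with library C above A and B: Gad1, the enzyme that makes GABA, was at 0.384, 0.147 and 3.03 CPM, Dlx1 at 1.95, 0.118 and 16 CPM, and Dlx2 at 1.62, 0.56 and 15.2 CPM. At P1 their levels were 56.9, 59.5 and 58.8 CPM, 99.1, 97.7 and 95 CPM, and 30.7, 27 and 28.1 CPM. Without E11 C, the log2 fold change of Gad1 went from 5.66 to 7.76. Dlx2 had an adjusted p of 0.0655 with all libraries.

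Of 12 striatal genes, 8 rose and 2 fell, with a median of 1.64. Besides Drd1, Ppp1r1b (DARPP-32), the dopamine-regulated phosphatase inhibitor, rose from 0.532, 1 and 0.255 CPM to 29.5, 22.6 and 32.7 CPM (log2 fold change 5.54, and 6.14 without E11 B). Drd2, the receptor of the indirect pathway, reached 1.11 CPM, and Adora2a was at 4.89 and 4.86 CPM (adjusted p = 0.976). Cortical neurons express some of these genes too, and the part of striatal tissue in their levels was not tested.

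Glial genes rose at P1. Of 11 tested astrocyte genes, 9 rose beyond 2-fold (median 2.88). Gfap, the astrocyte filament, rose from 0.266, 0.118 and 0.223 CPM to 49.2, 59.9 and 48.9 CPM (adjusted p = 2.69e-06), Aldh1l1 from 0.624 to 66.1 CPM and the water channel Aqp4 from 0.716 to 30.4 CPM. Aldh1l1 was at 53.5 CPM at E17 and Gfap at 10.5 CPM, so the former was near its P1 level before birth. The fall was that of the gap junction gene Gja1, which neuroepithelial cells use as well, from 205, 239 and 189 CPM to 28.4, 17.8 and 28.6 CPM.

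The 10 tested genes of the oligodendrocyte lineage all rose, 7 beyond 2-fold, with a median of 3.29. Precursor genes moved most: Olig1 rose from 0.709, 0.059 and 0.669 CPM to 104, 104 and 111 CPM (log2 fold change 7.80 ± 0.46, SE), Gpr17 from 0.397 to 33 CPM and Sox10 from 0.532 to 17.9 CPM. Sox10 and Gpr17 were high at E11 in library A, at 1.45 and 1.03 CPM, against at most 0.147 CPM in B and C, and their log2 fold changes of 5.04 and 6.35 became 7.81 and 8.68 without it. Among myelin genes Mbp rose from 27.9 to 55.3 CPM, and Mog was too low to test.

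Microglial genes moved little. Of 12, 7 rose and 1 fell, with a median of 0.62, and the summed level was 68.6, 79.7 and 77 CPM at E11 and 115, 118 and 101 CPM at P1. The number of rises was 4 without E11 A and 4 with scaling by library size alone, and the number of falls was 2 without P1 B. P2ry12, a purine receptor of mature microglia, rose from 1.92 to 5.2 CPM and Trem2 from 1.3 to 3.6 CPM. Tmem119 fell from 4.37, 5.16 and 8.38 CPM to 1.41, 1.34 and 0.955 CPM. Csf1r, the receptor that microglia need to survive, was at 18.3 and 22 CPM (adjusted p = 0.231).

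Vessel genes went both ways. Among 11 endothelial genes, 5 fell and 4 rose. Lower at P1 were the cadherin gene Cdh5, at 68.5 and then 18.3 CPM, and Kdr, the receptor for vascular growth factor, at 88.7 and then 41.8 CPM. Slco1c1, a carrier of thyroid hormone, rose from 1.39, 2.24 and 0.414 CPM to 72.5, 64.6 and 64.1 CPM, the tight junction gene Cldn5 from 15.2 to 40.7 CPM, and the efflux pump Abcb1a from 2.96 to 7.4 CPM. The glucose transporter Slc2a1, which progenitors share with the barrier, fell from 173 to 37.9 CPM. Of 6 pericyte genes, 3 rose and 2 fell, and Rgs5 rose most, from 18.1 to 80.2 CPM.

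Markers of neighbouring tissue differed strongly between the ages. Of 11 genes of meningeal fibroblasts and mesenchyme, 10 fell beyond 2-fold, with a median of -3.98. Col3a1, a fibrillar collagen, fell from 649, 755 and 695 CPM to 14.6, 5.08 and 4.51 CPM, Col1a1 from 175, 189 and 275 CPM to 7.43, 0.773 and 1.53 CPM, and Lum, a collagen-binding proteoglycan, from 81.8 to 0.9 CPM. The summed level was 1250, 1470 and 1520 CPM at E11, and 61.4, 19.7 and 22 CPM at P1, where library A stood above the others. Without P1 A the log2 fold changes of Col1a1 and Col3a1, -6.06 and -6.45, became -7.48 and -7.16. The summed level was 834 to 1140 CPM at E13 and 20 to 23.2 CPM at E17.

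Choroid plexus genes fell in 6 of 8 cases and rose in 2 (median -5.95). The rises were those of Enpp2 (12.8 to 21.9 CPM) and Kl (0.232 to 0.531 CPM). Otx2, which specifies this epithelium, fell from 22.8, 39.4 and 26.9 CPM to 0.0799, 0.129 and 0.0478 CPM, and Clic6 from 35.3 to 0.204 CPM. The erythroid list had 11 falls among 12 genes and a median of -6.58, or -6.38 with Gata1 at its bound. Adult globin genes fell with the embryonic ones, Hba-a1 from 509 to 13.6 CPM and Hbb-bt from 162 to 6.07 CPM. Hbb-bs was at 134, 62 and 25.6 CPM at E11 and 40.6, 28 and 21.7 CPM at P1 (adjusted p = 0.0585). Hba-a1 and Hba-a2, and Hbb-bs and Hbb-bt, are near-identical copies, so the division of reads within each pair is uncertain. Skin and nerve markers were low. The summed level of 10 surface ectoderm genes was 11.6 to 22.8 CPM at E11 and 0.836 to 2.45 CPM at P1. That of 6 cranial ganglion genes was 13.7 to 14.7 and 2.37 to 3.22 CPM. Most of the E11 sum was Neurog1 (12, 12.6 and 13.7 CPM), which is also on the intermediate progenitor list and had 1 count at P1. The fall of the sum is therefore mainly that of Neurog1. Of the 4 tested members 3 fell, and Prph rose (log2 fold change 2.84, and 4.32 without E11 A). The diencephalon to hindbrain list had a higher sum, at 67, 83.5 and 73.2 CPM at E11 and 3.68, 5.64 and 3.1 CPM at P1. Of its 10 genes only 3 were tested, and Lhx9 made up the larger part of the sum in every E11 library. The 3 Hox genes of that list had no count in the E11 or P1 libraries. Lhx9, expressed in diencephalon and the medial edge of the cortex, fell from 49.1, 43.2 and 48.1 CPM to 0.266, 2.17 and 0.286 CPM (log2 fold change -5.70, and -7.35 without P1 B). Among 6 skeletal muscle genes, Acta1 rose from 0.172 to 3.76 CPM, Myh3 was at 1.14 and 1.9 CPM (adjusted p = 0.0643), and the muscle determination genes Myod1 and Myog had no count at E11 and 3 and 1 counts at P1. The number of muscle genes that rose, 1, was 2 without E11 C or without P1 A. How much these tissues contributed to the falls of genes they share with the cortex was not tested.

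**Figure D4:**
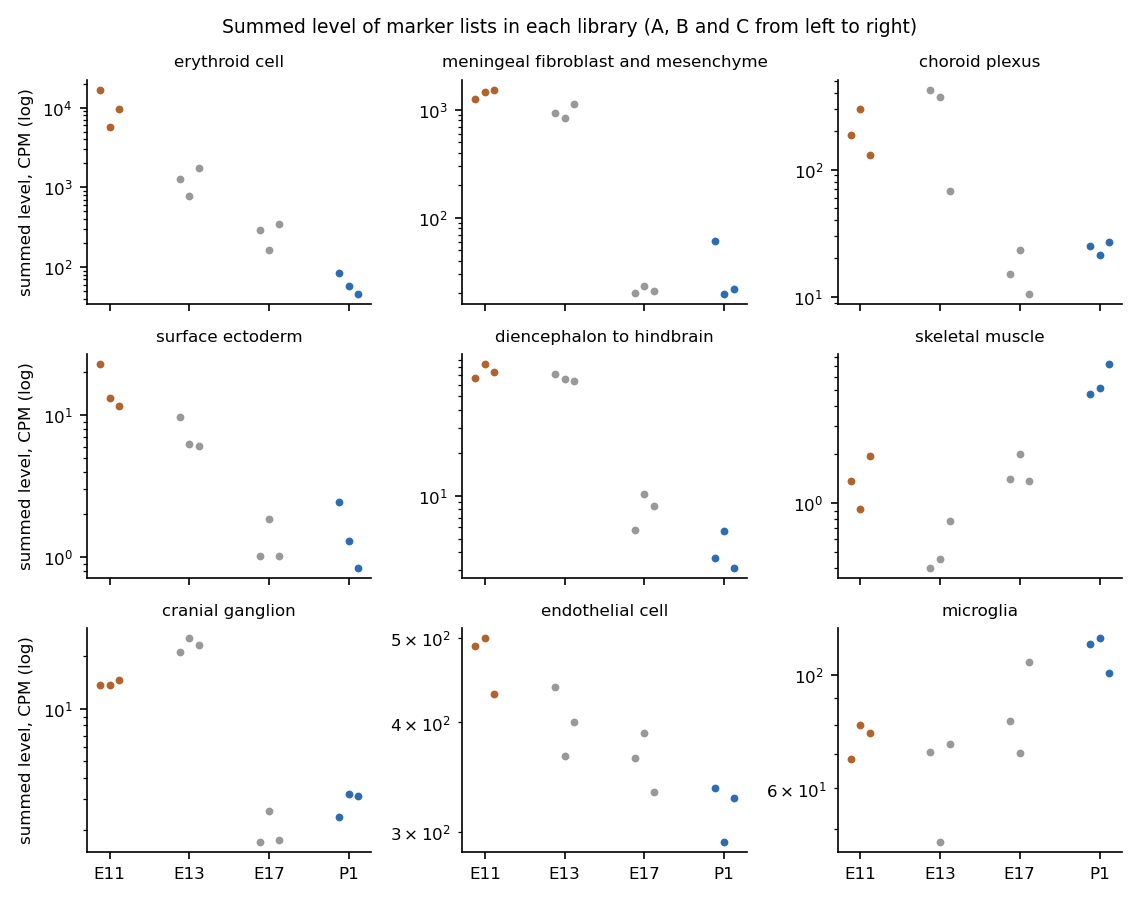
Summed level (CPM, log scale) of 9 marker lists in each library, with A, B and C from left to right at each age (brown E11, grey E13 and E17, blue P1). Erythroid, meningeal, choroid plexus, surface ectoderm, diencephalon to hindbrain, cranial ganglion and endothelial sums are lower in every P1 library than in every E11 library. Microglial and skeletal muscle sums are higher in every P1 library. At E11, Neurog1 makes up most of the cranial ganglion sum and Lhx9 the larger part of the diencephalon to hindbrain sum.

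Related genes that divide a function between progenitors and neurons were compared in 25 pairs, each with the member known from dividing or non-neuronal cells named before the member known from neurons or later stages. In 13 pairs the early member fell and the late member rose. In 5 both fell, in 5 both rose, and in 2 the member on 1 side did not pass (Aldoc and Slc17a6). The ratio of late to early counts was higher in every P1 library than in every E11 library in 24 of the 25 pairs. Among single genes, 84.5% had no overlap between the ages in either direction, which is a different measure from a ratio in 1 direction. The pairs were chosen with earlier results of these data known. No test was made of the ratios. Ratios of counts depend on the lengths of the 2 transcripts, so the sign of a ratio has no meaning of its own, and the change between ages is given. A count of 0.5 was added to each gene.

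Subunits of the BAF chromatin remodelling complex, which is known to exchange subunits as progenitors leave the cell cycle, moved in opposite directions in all 3 pairs. Actl6a fell from 159, 163 and 165 CPM to 23, 24.4 and 20.9 CPM, and Actl6b rose from 7.5, 5.69 and 8.19 CPM to 143, 147 and 148 CPM. The mean log2 ratio of late to early counts changed by 7.21. For Ss18 (96.2 to 24.1 CPM) and Ss18l1 (26.1 to 154 CPM) it changed by 4.56, and for Dpf2 (119 to 50 CPM) and Dpf1 (38.7 to 189 CPM) by 3.55.

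Among pairs of membrane traffic, Snap23 fell (43.2 to 10.1 CPM) as Snap25 rose, and the log2 ratio changed by 7.35. Dnm1, the neuronal dynamin of vesicle retrieval, rose from 14.3 to 207 CPM, while Dnm2 had a small rise (log2 fold change 0.18; adjusted p = 0.0085) that had the opposite sign under library-size scaling (-0.05; adjusted p = 0.432) and did not pass with upper-quartile factors (adjusted p = 0.18). Kif5a, the neuronal kinesin, rose from 39.2 to 727 CPM while Kif5b fell by 0.20 on the log2 scale.

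Ion transport gave a clear exchange. Slc12a5 (KCC2), which pumps chloride out of neurons, rose from 6.5, 4.54 and 7.93 CPM to 85.2, 81.7 and 105 CPM (log2 fold change 3.84 ± 0.19, SE; adjusted p = 1.34e-09), and Slc12a2 (NKCC1), which brings chloride in, fell from 84.7 to 65.9 CPM. Slc12a5 was at 4.74 CPM at E13 and 40.7 CPM at E17.

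The pair that went against the others was Grin2b and Grin2a, where the later subunit Grin2a rose from 1.67 to 15.8 CPM but Grin2b rose by far more, and the log2 ratio of Grin2a to Grin2b changed by -5.81. Aldoc, the aldolase of astrocytes, was at 65.3, 84.5 and 8.44 CPM at E11, with library C far below the others, and 141, 109 and 115 CPM at P1. Its adjusted p was 0.0901 with all libraries, and it passed without E11 C (log2 fold change 0.70; adjusted p = 0.000367), without E11 B (1.72; adjusted p = 0.043) and in limma-voom (adjusted p = 0.0391). Both splicing regulators Ptbp1 (440 to 66 CPM) and Ptbp2 (428 to 238 CPM) fell, the former more, and so did both DNA methyltransferases Dnmt3b (18.2 to 3.16 CPM) and Dnmt3a (312 to 166 CPM). In the globin pairs both members fell. The log2 ratio of Hbb-bt to Hbb-y was -5.35, -5.17 and -5.53 at E11 and 7.72, 1.93 and 5.61 at P1, lowest there in library B, and rested on 62 counts of Hbb-y over the P1 libraries. Hba-x had 13 counts at P1 and none in library C, so the size of its ratio to Hba-a1 depends on the added count.

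**Figure D5:**
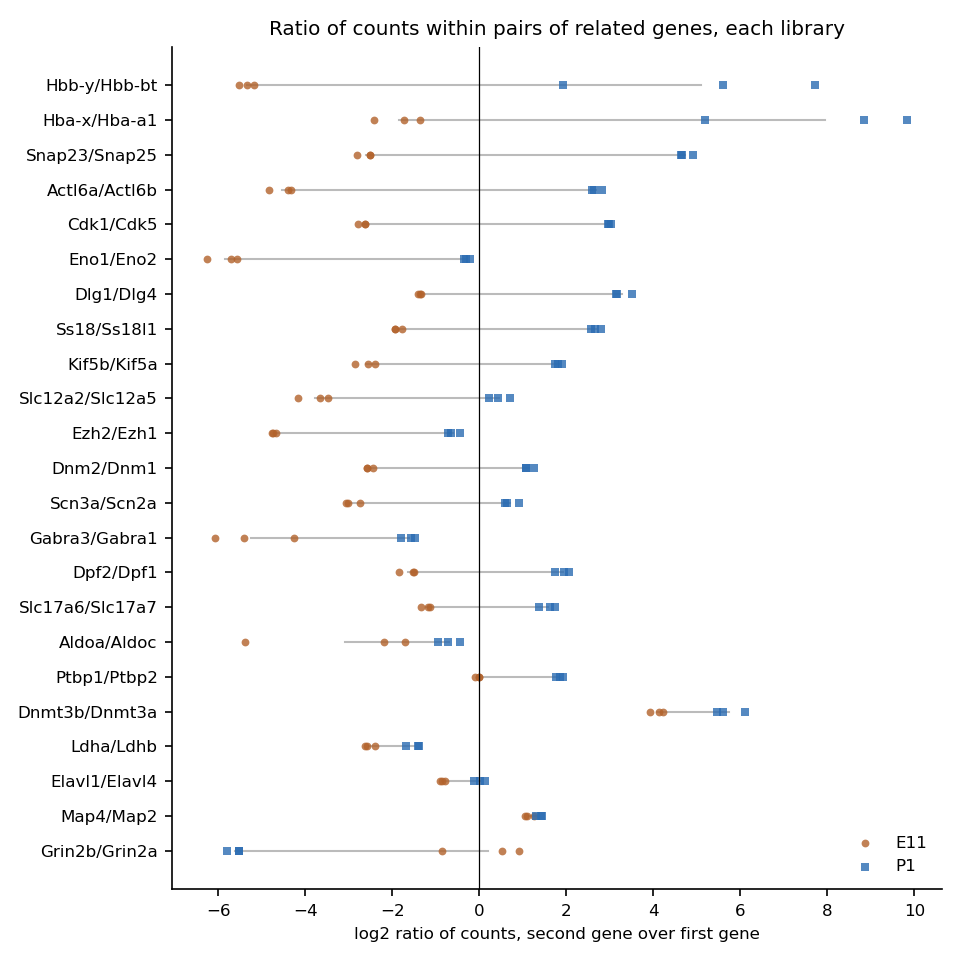
Log2 ratio of counts, second gene over first, in each E11 (brown) and P1 (blue) library for 23 of the 25 pairs of related genes, with grey lines joining the means. P1 points lie to the right of E11 points in 22 of those shown and to the left for Grin2b and Grin2a.

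Regulators of RNA and chromatin shifted with these pairs. Of 15 tested neuronal RNA-binding genes, 10 rose and 4 fell (median 1.52). Rbfox1, a splicing factor of mature neurons, rose from 2.57, 2.56 and 2.64 CPM to 252, 236 and 255 CPM (log2 fold change 6.58 ± 0.16, SE; adjusted p = 1.12e-12), and Celf4 and Celf5 from 21.2 to 307 and 34.5 to 381 CPM. Rest, the repressor of neuronal genes in other cells, fell from 67.2 to 12.1 CPM. Of 14 genes of DNA methylation and polycomb repression, 9 fell and 3 rose (median -0.58). The polycomb genes Cbx2 (175 to 17.4 CPM) and Ezh2 (340 to 63.7 CPM) fell, while Ezh1 (12.8 to 41.8 CPM) and Cbx7 (6.82 to 11.3 CPM) rose.

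Imprinted genes, expressed from 1 parental copy and many of them regulators of growth, fell in 11 and rose in 5 of 17 tested cases (median -1.07). H19 fell from 418, 450 and 504 CPM to 16.1, 6 and 9.24 CPM and Igf2 from 298, 371 and 360 CPM to 52.8, 23.5 and 23.4 CPM. P1 library A was the highest for both, as it was for the meningeal genes. At E11 the meningeal sum and H19 were highest in library C and Igf2 in library B. Mesenchyme expresses both genes at high level, and its part in their levels was not tested. Mest fell from 780 to 44 CPM. Meg3, a long non-coding RNA, rose from 64.1, 59.5 and 112 CPM to 920, 1072 and 1176 CPM (log2 fold change 3.75 ± 0.28, SE), and Snrpn from 56 to 363 CPM.

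Glycolysis genes were mostly lower at P1, with exchanges between isoforms. Of 19 glycolysis genes, 13 fell and 5 rose, with a median of -1.37. The hexokinase Hk2 fell from 94, 78.4 and 89 CPM to 4.47, 5.05 and 4.04 CPM (log2 fold change -4.27 ± 0.13, SE; adjusted p = 1.82e-12), and Hk1, the brain form, rose from 51.4 to 396 CPM. The phosphofructokinase Pfkp rose from 12.4, 9.14 and 12.4 CPM to 325, 340 and 406 CPM, whereas Pfkl, the liver form, fell from 244 to 94.2 CPM. Eno1 fell from 412 to 133 CPM and Eno2, the neuronal enolase, rose from 7.34 to 109 CPM. Pgk1 (198 to 47.5 CPM), Ldha (877 to 284 CPM) and Gapdh (818 to 281 CPM) fell, so Gapdh, often used as a reference, was itself lower at P1.

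Oxidative phosphorylation genes stayed near their E11 level. Of 74, 25 rose and 23 fell, none of them beyond 2-fold, and the median was 0.01. The division followed the scaling: 31 rose and 21 fell with RLE factors, 17 and 33 with upper-quartile factors, and 12 and 44 with library size alone. The widest changes were those of Ndufa8 (37.9 to 66.7 CPM) and Cox6a1 (92.1 to 161 CPM) upwards, and Atp5g2 (23.1 to 14.2 CPM), Ndufa2 and Atp5j2 downwards. All 77 cytosolic ribosomal protein genes fell, 4 beyond 2-fold, with a median of -0.77, and all 77 fell with each of the other 3 scalings. Their summed level was 29400, 30700 and 29900 CPM at E11 and 17700, 17700 and 16900 CPM at P1. The largest fall was that of the p53-inducible relative Rps27l (60.5 to 13.7 CPM), Rps6 fell from 252 to 113 CPM, and the smallest was that of Rpl38 (88.6 to 75.6 CPM).

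Of 16 cholesterol synthesis genes, 10 rose and 4 fell (median 0.37), or 7 and 6 with scaling by library size alone. Hmgcs1 (410 to 906 CPM) and Fdft1 (83.6 to 180 CPM), which act at the entry to the pathway and at the first step committed to sterols, rose beyond 2-fold, and Idi1 fell from 16.8 to 7.35 CPM. Of 12 immediate early genes, which neurons induce on activity, 7 rose and 3 fell. Egr1 rose from 3.79 to 31.7 CPM, Egr3 from 0.0909 to 5.25 CPM and Npas4, induced by calcium entry, from 0.148, 0.236 and 0.159 CPM to 3.57, 3.09 and 3.46 CPM. Btg2, which also marks neurogenic progenitors, fell from 94 to 8.38 CPM, and Arc was at 2.13 and 2.33 CPM (adjusted p = 0.570). The log2 fold change of Egr3, 5.80, was 6.73 without E11 A and 5.22 without E11 B, and that of Egr2, 4.52, was 5.34 without E11 C.

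Axon guidance genes rose in 14 and fell in 5 of 22 cases (median 1.09). The semaphorin receptor gene Plxna4 rose from 64.8, 43.2 and 44.5 CPM to 516, 506 and 434 CPM (log2 fold change 3.25 ± 0.15, SE; adjusted p = 7.09e-10), and the Slit receptor genes Robo1 and Robo2 from 50.9 to 239 and 54.9 to 362 CPM. Slit2, a ligand of these receptors, fell from 108, 115 and 90.1 CPM to 23.3, 22.9 and 21.6 CPM, while Slit1 rose from 23.5 to 93.6 CPM. The netrin receptor gene Dcc fell from 99.2 to 42.6 CPM and Nrp2 from 92.8 to 39.7 CPM. Dcc (146 CPM), Nrp2 (132 CPM at E17) and Robo2 (448 CPM at E17) had higher means between the 2 ages than at either end.

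Zinc uptake and storage in the forming cortex are the subject of the series by its title. Of 24 tested zinc genes (importers of the Slc39 family, exporters of the Slc30 family, metallothioneins and the sensor Mtf1), 9 rose and 7 fell, beside 40.5 and 41.8% of all genes. Beyond 2-fold, 4 rose and 2 fell, and the median was 0.03. Slc30a3 (ZnT3), which loads zinc into glutamatergic vesicles, was at 0.0591, 0 and 0.35 CPM at E11 and 1.6, 2.19 and 3.94 CPM at P1 (log2 fold change 4.26 ± 0.61, SE; adjusted p = 2.69e-05). The change was 6.29 without E11 C and 3.66 without E11 B. Mt3, the brain metallothionein, rose from 7.03, 7.49 and 6.31 CPM to 37, 31.9 and 35.4 CPM, and the exporter Slc30a4 from 33.4 to 90.7 CPM. The importers Slc39a8 (34.9 to 13.1 CPM) and Slc39a1 (48.1 to 19 CPM) fell. With scaling by library size alone, 8 zinc genes rose and 11 fell.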

How the data were processed

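RNA was measured in 12 libraries of mouse cerebral cortex, 3 per age, and the 3 E11 and 3 P1 libraries were compared. The authors deposited raw read counts, without normalization, for 50600 Ensembl gene identifiers per library, per the file headers. Per the submitters' processing notes, the tools included STAR 2.5.2b, HTSeq 0.5.3, DESeq2 1.8.1, SAMtools and bcl2fastq. What each tool was used for, the strand setting of the counting, the annotation and the genome build were not given in the sources used here. Reads of overlapping or antisense genes may therefore not be told apart. Replicate libraries of an age differed by more than sampling noise (chi-squared per degree of freedom 9.457 to 20.63), and Pearson's r across genes was 0.987 to 0.994 within an age and 0.79 to 0.811 between E11 and P1.

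edgeR 4.0.16 (R 4.3.3) was used for the tests. filterByExpr (minimum count 10) left 17847 genes and removed 32753. A quasi-likelihood model (robust, TMM factors, age as the only factor) was fitted to all 12 libraries, so the spread (common biological coefficient of variation 0.106) was shared between ages with 8 residual degrees of freedom. P-values are two-sided and Benjamini-Hochberg adjusted over the whole table. glmTreat used a log2 threshold of 1. The pipeline was tested on simulated data. Letters A, B and C did not pair the libraries (correlations of deviations between same letters 0.0828, -0.204 and -0.115).

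Gene lists, pairs of related genes and naming rules were chosen with earlier results of these data known. Named genes are the 15 largest rises and falls by log2 fold change with at least 10 CPM at 1 age and no overlap, the 8 largest rises and falls in CPM, the 12 highest on and off genes, the 3 largest rises and falls of each list, and all pairs; unnamed transcripts, sex-linked marker genes, mitochondrial genes and duplicated symbols were left out, and some genes the rules cover are not reported here, among them members of 2 pairs. Ratios of genes with 1 to 3 counts carry 95% exact counting intervals. Alternatives were RLE, upper-quartile and library-size scaling, no filter, 1 CPM in 3 libraries, erythroid genes removed, the 6 libraries alone, a replicate block, DESeq2 1.42.0, limma-voom (limma 3.58.1), other on/off limits and each library left out. Gene types come from GENCODE M21 and promoter windows from RefSeq.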

Additional observations from a re-analysis of the deposited data

How the results depend on the processing

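The number of changed genes, 14693, stayed between 13087 and 16196 in all alternatives, and the number changed beyond 2-fold, 7241, between 6197 and 8019. Leaving out 1 library gave 14311 to 14616 and 6974 to 7213. With the replicate block they were 14582 and 7202, and among the lists the block moved the number of skeletal muscle genes that rose from 1 to 2. The counts of on and off genes followed their limits. Genes on at P1 and off at E11, 88 in all, were 161 with a limit of 0.5 CPM, 28 with 5 CPM, 24 with 0 counts and 148 with at most 0.1 CPM in each library. Genes on at E11 and off at P1, 41 in all, were 69, 7 and 14 under the first 3 of these limits and 60 under the last. Leaving out 1 library gave 91 to 131 on genes and 44 to 56 off genes, where the limit of 3 counts then applies to fewer libraries. Of 3945 refits of 247 named genes, 3924 kept direction and side of the threshold, 16 lost the call, 4 gained it (Slc17a6 and Aldoc) and 1 reversed, Dnm2 at -0.047 with scaling by library size alone. Losses included those of Atp5l (also with the replicate block, adjusted p = 0.0504), Dnm2, Elavl4, Ttr, Fezf2 and Cux1; the cause was not tested. Of the counts of rises and falls in the lists, 39 of those recomputed moved by more than 1.5 times and 1303 did not. Depth limits the fold changes of genes with few counts at 1 age, whose size depends on single counts.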
